A study of Mus musculus with 6 samples.

Results

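The 10 genes Atf4, Atf5, Atf3, Ddit3, Asns, Chac1, Trib3, Hspa5, Xbp1 and Ppp1r15a belong to the integrated stress response and the unfolded protein response. They were taken by mouse gene symbol out of 54331 genes in a table of transcript abundance, and all 10 were found. The cells were male mouse embryonic fibroblasts (MEFs) from several E13.5 embryos, mixed together, of a mixed C57BL/6, DBA/2 and ICR background with an Oct4-EGFP transgene. All wells received retroviruses for Oct4, Sox2 and Klf4 (OSK) and for AKT-MER, a myristoylated AKT joined to a modified estrogen receptor that 4-hydroxytamoxifen (4OHT) switches on, a mixture called OSKA. After replating, 3 wells were given 4OHT (OSKA + 4OHT) and 3 wells were given the ethanol vehicle (OSKA - 4OHT), and RNA was taken at 10 days postinfection (dpi). The wells came from a single pool of infected MEFs, so the p-values below measure the spread between wells and not between independent MEF preparations. Wells that received 4OHT without AKT-MER were not analysed here, so AKT activation and 4OHT itself cannot be told apart.

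In the integrated stress response, the kinases HRI, PKR, PERK and GCN2 phosphorylate the translation factor eIF2. General protein synthesis then drops while the ATF4 mRNA, which carries upstream open reading frames, is translated more, so that the mRNA level of Atf4 does not report the amount of ATF4 protein. ATF4 activates genes of amino acid supply and of cell death control, often as a dimer with C/EBP proteins. The unfolded protein response of the endoplasmic reticulum (ER) uses PERK, ATF6 and IRE1, and IRE1 splices the Xbp1 mRNA into its active form, which abundance per gene does not show. AKT acts in growth signaling next to mTORC1, which is itself known to raise ATF4 translation in growing cells.

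Some of the promoters carry short elements through which these factors are known to act, and the matches are shown as a description. The windows of Atf4, Atf5, Ddit3 and Xbp1 held none of the elements searched. The windows ran from 250 bases before to 50 bases after each start in RefSeq on GRCm38.p6, all 10 genes had at least 1, and both strands were searched. The letters TGATGNAA, the core of the C/EBP-ATF response element, were found for Asns, Atf3, Chac1 and Trib3, 4 of the 10 genes, in 4.51% of all 27025 genes with a window and in 3.97% of all 32851 windows. The ER stress element, CCAAT and CCACG with 9 bases of any kind between them, was found for Hspa5 and in 0.119% of all windows. The cAMP response element TGACGTCA was found for Ppp1r15a and in 1.79% of all windows. The XBP1 element TGACGTGG was found for none of the 10 genes and in 0.676% of all windows. The printed matches overlapped no match to another of these elements. Each stretch below is read on the strand of its gene with the matched letters in capitals, and in Atf3, Chac1 and Trib3 the match lies on the opposite strand and is seen as its reverse complement.
Asns: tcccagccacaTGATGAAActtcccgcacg
Atf3: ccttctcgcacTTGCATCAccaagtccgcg
Chac1: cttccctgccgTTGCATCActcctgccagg
Trib3: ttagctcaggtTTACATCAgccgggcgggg
Hspa5: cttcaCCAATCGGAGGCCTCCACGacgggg
Ppp1r15a: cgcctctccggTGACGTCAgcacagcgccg
The stretch of Asns lies at chr6:7693214-7693243 on the minus strand, with its match 23 to 16 bases before the start. That of Atf3 lies at chr1:191183425-191183454 on the minus strand, 110 to 103 bases before the start. That of Chac1 lies at chr2:119351038-119351067 on the plus strand, 193 to 186 bases before the start. The Trib3 stretch at chr2:152344028-152344057 on the minus strand holds its match after the start. The Hspa5 stretch at chr2:34772020-34772049 on the plus strand holds its match 65 to 47 bases before the start, and the Ppp1r15a stretch at chr7:45526262-45526291 on the minus strand holds its match 12 to 5 bases before it. A match is a description of the letters and not a measured binding site.

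Levels are given as TPM, the share of a gene's transcripts among all transcripts, set per length and scaled to 1000000 in each library, so that the read depth is not kept in them. Between 15814 and 18230 genes were above 0 in a library, and the 10 most abundant genes held 18.1% to 23.0% of the TPM. Differences are log2 fold changes of OSKA + 4OHT against OSKA - 4OHT on the log2(TPM + 0.5) scale, which understates changes of low genes, tested with limma-trend over the 15382 genes that averaged 1 TPM or more and adjusted by Benjamini-Hochberg. At an adjusted p under 0.05, 845 genes (5.49%) were called, 542 higher (3.52%) and 303 lower (1.97%) in OSKA + 4OHT, and 4.23% were called with a change above 2-fold besides, 2.87% higher and 1.37% lower. With trimmed mean of M values scaling the split was 456 higher and 480 lower, and with quantile normalization it was 428 higher and 434 lower. Over all tested genes the median of the fitted changes was 0.14 (log2), and changes relative to this median are given beside the fitted ones. In bulk RNA, fewer cells of a type and less RNA per cell cannot be told apart.

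None of the 10 genes was called by limma-trend, against 5.49% of all tested genes, and all 10 passed the filter on low values. At an unadjusted p under 0.05 there were 2, Asns and Trib3, against 21.3% of all tested genes, 14.1% higher and 7.18% lower. The wells of the groups did not overlap for 3 genes (30%), higher in OSKA + 4OHT for Hspa5 and lower for Asns and Xbp1, which is near the 28.2% of all tested genes (18.1% higher and 10.0% lower). The median log2 fold change over the 10 genes was -0.13, or -0.28 relative to all genes, and 2 of the 10 lay above the all-gene median. The median size of the change, without its sign, was 0.18 for the 10 genes and 0.44 for all tested genes. For 7 of the 10 genes the 95% interval of the log2 fold change lay between -1 and 1, so that a change of 2-fold lay outside it. The exceptions were Asns, Chac1 and Trib3. Ddit3 is counted here by the longer of its annotation entries, and the interval of its short entry, described below, ran from -7.12 to 7.98.

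**Figure D1:**
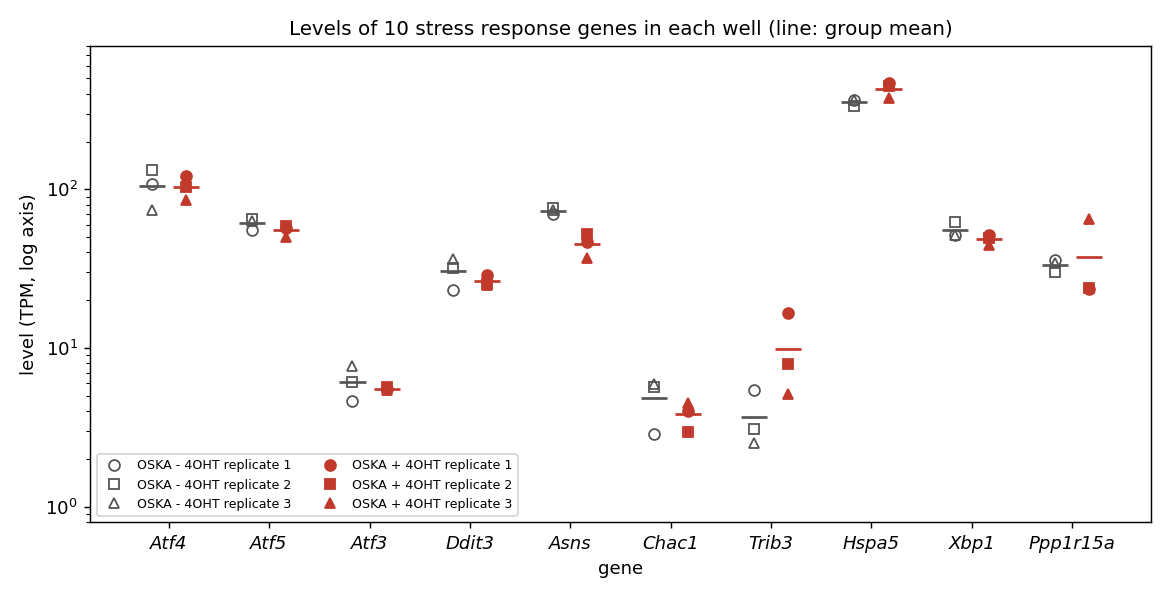
TPM of the 10 genes in each of the 6 wells on a log axis, with open symbols for OSKA - 4OHT, filled symbols for OSKA + 4OHT, 1 symbol shape per replicate number and a line at each group mean. The groups are apart for Asns and Hspa5 and barely apart for Xbp1, and their ranges overlap for the other genes. For Trib3 only the lowest OSKA + 4OHT well (5.16 TPM) lies within the OSKA - 4OHT range, and the highest is at 16.6 TPM. For Ppp1r15a the OSKA + 4OHT wells lie on either side of the OSKA - 4OHT range, with the highest at 65.1 TPM.

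Among the transcription factors, Atf4 (chr15:80255184-80257541, plus strand, GRCm38), the central factor of the response, was at 107.5, 131 and 74.6 TPM in the 3 OSKA - 4OHT wells and at 122, 103 and 85.2 TPM in the 3 OSKA + 4OHT wells. Its means of 104.5 ± 28.6 and 103.6 ± 18.5 TPM (SD, n = 3 each) were alike, and the OSKA + 4OHT wells lay inside the range of the OSKA - 4OHT wells. The log2 fold change was 0.0097 with a 95% interval of -0.59 to 0.61 (limma-trend, adjusted p = 0.990). Its sign turned with trimmed mean of M values scaling, where it was -0.12, with quantile normalization, where it was -0.081, without OSKA - 4OHT replicate 3, where it was -0.21, and without OSKA + 4OHT replicate 1, where it was -0.12. The Atf4 mRNA was abundant in both groups, at the 91.2 percentile of tested genes.

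Atf5 (chr7:44812256-44816658, minus strand), a relative of ATF4 that is also translated under stress and acts in the mitochondrial stress response, was at 55.3, 64.9 and 63.4 TPM without 4OHT and at 56.8, 59.0 and 50.1 TPM with it. The wells overlapped, and the log2 fold change of -0.15 had an interval of -0.49 to 0.20 (limma-trend, adjusted p = 0.604). Of its exonic bases, 82 also belong to Nup62 and to Il4i1 on the opposite strand. The library kit keeps the strand, but whether the quantification used it is not given in the sources used here.

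Atf3 (chr1:191170296-191218039, minus strand), a target of ATF4 that is also an early gene of many stress signals, was at 4.64, 6.09 and 7.75 TPM without 4OHT and at 5.52, 5.65 and 5.42 TPM with it. The OSKA + 4OHT wells lay within the range of the OSKA - 4OHT wells. The log2 fold change of -0.12 had an interval of -0.74 to 0.51 (limma-trend, adjusted p = 0.832). Without OSKA - 4OHT replicate 3, the highest well, its sign turned, at 0.051, and without OSKA - 4OHT replicate 1 it was -0.29.

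Ddit3 (chr10:127290774-127296288, plus strand) encodes CHOP, the factor through which a lasting stress response turns to cell death. It was at 23.1, 32.2 and 36.5 TPM without 4OHT and at 29.0, 25.3 and 25.1 TPM with it, and again the OSKA + 4OHT wells lay inside the range of the others. The log2 fold change of -0.18 had an interval of -0.70 to 0.33 (limma-trend, adjusted p = 0.659). The annotation holds a second Ddit3 entry, a single short transcript at chr10:127290829-127293753 that lies whole inside 2 transcripts of the first. This short entry was listed at 0, 104.5 and 0 TPM without 4OHT and at 0, 0 and 256.5 TPM with it, so 1 well of each group carried all of its signal. Reads from those shared bases could be given to either entry. The short entry has 105 bases and the longest transcript of the first has 969. TPM is set per length, so a read given to the short entry weighs more, and the summed TPM is not a level of Ddit3. This sum was 23.1, 137 and 36.5 TPM against 29.0, 25.3 and 282 TPM, with a log2 fold change of 0.28 (limma-trend, adjusted p = 0.911). The sign thus turned when the TPM of both entries were added, a comparison chosen after seeing the data, and the call did not. Because the sum gives the short entry so much weight, the turn is not read as a change of Ddit3. A further 68 of its exonic bases overlap Mars and 13 overlap Gm4189 on the opposite strand.

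Xbp1 (chr11:5520659-5525893, plus strand), the factor of the IRE1 branch, was at 51.8, 61.9 and 51.9 TPM without 4OHT and at 51.4, 49.2 and 44.9 TPM with it. All OSKA + 4OHT wells were below all OSKA - 4OHT wells, by a gap smaller than the spread within either group. The log2 fold change of -0.18 had an interval of -0.54 to 0.17 (limma-trend, adjusted p = 0.545).

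Among the effectors, Asns (chr6:7675169-7693254, minus strand) encodes asparagine synthetase, which makes asparagine from aspartate and glutamine and is a classic target of ATF4. It was at 69.9, 75.9 and 74.2 TPM in the OSKA - 4OHT wells and at 46.7, 52.6 and 37.0 TPM in the OSKA + 4OHT wells. All OSKA + 4OHT wells lay below all OSKA - 4OHT wells, and the ratio of the means, 45.5 ± 7.86 over 73.3 ± 3.08 TPM (SD, n = 3 each), was 0.620. The log2 fold change was -0.70 (SE 0.17, 95% interval -1.11 to -0.29), or -0.84 relative to all genes, with a limma-trend adjusted p = 0.0703, the lowest among the 10 genes and above the threshold. With trimmed mean of M values scaling it was called at -0.83 (limma-trend, adjusted p = 0.0246) and with quantile normalization at -0.81 (limma-trend, adjusted p = 0.0309). Leaving out 1 well at a time gave values from -0.81 to -0.56, with adjusted p from 0.114 to 0.178, so the direction held throughout, and a call was made under these 2 scalings and no other setting tried.

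Trib3 (chr2:152337422-152344032, minus strand) encodes a pseudokinase that ATF4 and CHOP induce and that is known to bind AKT. It was at 5.43, 3.09 and 2.51 TPM without 4OHT and at 16.6, 7.92 and 5.16 TPM with it. The highest OSKA - 4OHT well overlapped the lowest OSKA + 4OHT well, and the SD in OSKA + 4OHT, 5.98 around a mean of 9.90 TPM, was wide beside 1.55 around 3.68 TPM. Trib3 had the largest rise in the fit among the 10 genes, with a log2 fold change of 1.22 (SE 0.48, 95% interval 0.058 to 2.39), but it did not pass the adjustment (limma-trend, adjusted p = 0.216). Without OSKA + 4OHT replicate 1, the highest well, the value was 0.79, which was the lowest of all alternatives, and the highest was 1.58.

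Chac1 (chr2:119351229-119354381, plus strand), which degrades glutathione, was at 2.87, 5.71 and 5.94 TPM without 4OHT and at 4.04, 2.98 and 4.53 TPM with it. The wells overlapped, and the log2 fold change of -0.25 had a wide interval of -1.12 to 0.61 (limma-trend, adjusted p = 0.724). Asns, Atf3, Chac1 and Trib3, whose windows all hold the C/EBP-ATF core printed above, thus had fitted values of both signs. Only that of Trib3 was positive, and none passed the test.

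Hspa5 (chr2:34771970-34777547, plus strand) encodes BiP, the main ER chaperone of its family. It was at 363, 335 and 364 TPM without 4OHT and at 466, 447 and 376 TPM with it. The groups did not overlap, and the means were 354 ± 16.3 and 430 ± 47.4 TPM (SD, n = 3 each). The log2 fold change of 0.27 had an interval of -0.013 to 0.56 (limma-trend, adjusted p = 0.255), and relative to all genes it was 0.13. Hspa5 was the most abundant of the 10 genes in both groups, at the 97.9 percentile of tested genes.

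Ppp1r15a (chr7:45522916-45526268, minus strand) encodes GADD34, which directs a phosphatase to eIF2 and so ends the response. It was at 35.9, 29.9996 and 34.4 TPM without 4OHT and at 23.6, 24.0 and 65.1 TPM with it. A pair of OSKA + 4OHT wells lay below all OSKA - 4OHT wells and the third lay above all of them, so that the log2 fold change was 0.00045 with an interval of -0.97 to 0.98 (limma-trend, adjusted p = 0.999). Without OSKA + 4OHT replicate 3 the value was -0.48 (limma-trend, adjusted p = 0.212), without OSKA - 4OHT replicate 2 it was -0.074, and over all alternatives it ran from -0.48 to 0.24. Its exons share 12 bases with Tulp2 on the opposite strand.

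**Figure D2:**
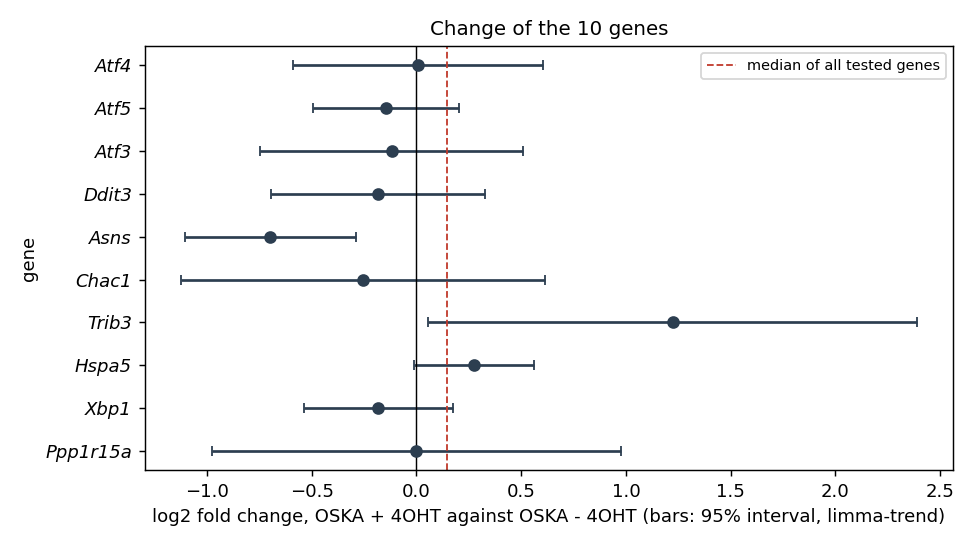
Log2 fold change of each of the 10 genes, OSKA + 4OHT against OSKA - 4OHT, with 95% intervals from limma-trend, a line at 0 and a dashed line at the median of all tested genes (0.14). The intervals of Asns and Trib3 lie on 1 side of 0, and those of Chac1, Trib3 and Ppp1r15a are the widest.

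The order of the levels was alike in both groups, from Hspa5 and Atf4 at the top to the group of Atf3, Chac1 and Trib3, which was below 20 TPM in every well. In OSKA - 4OHT the order was Hspa5, Atf4, Asns, Atf5, Xbp1, Ppp1r15a, Ddit3, Atf3, Chac1 and Trib3. Neighbours overlapped in their wells for Atf4 and Asns, Atf5 and Xbp1, Ppp1r15a and Ddit3, Atf3 and Chac1, and Chac1 and Trib3. In OSKA + 4OHT the order was Hspa5, Atf4, Atf5, Xbp1, Asns, Ppp1r15a, Ddit3, Trib3, Atf3 and Chac1. There the wells of Hspa5, Atf4 and Atf5 were apart, those of Ddit3 and Trib3 were apart, those of Atf3 and Chac1 were apart, and the other neighbours overlapped. Asns moved from the third to the fifth place and Trib3 from the last to the eighth.

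The genes also varied with the well. OSKA + 4OHT replicate 3 had the lowest level of its group for 8 of the 10 genes and the highest for the other 2, Chac1 and Ppp1r15a. Over all tested genes it was lowest of its group for 47.3% and highest for 23.9%, and its 10 most abundant genes held 23.0% of the TPM, the largest share among the 6 libraries, so it stood low for genes at large and not for these genes alone. OSKA + 4OHT replicate 1 was highest of its group for 5 genes, against 36.4% of all tested genes. OSKA - 4OHT replicate 1 was lowest of its group for 6 genes, against 33.3% of all tested genes, and also had the fewest genes above 0.

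Marker genes of several cell types were summed in each well. Of 8 fibroblast markers, 4 fell and none rose by limma-trend, against 1.97% and 3.52% of all tested genes. The fitted change was negative for 7 of the 8. For the other it was 0.69, with all OSKA + 4OHT wells higher and no call. The falls numbered 1 to 4 with 1 well left out and 0 to 5 over all alternatives. The summed level of the list was 9353 to 10904 TPM in OSKA - 4OHT and 5355 to 6510 TPM in OSKA + 4OHT. Of 8 epithelial markers, 7 were tested and 3 rose, against 3.52% of all tested genes, with sums of 34.5 to 89.8 TPM and 161 to 173 TPM. The rises numbered 1 to 3 with 1 well left out and 0 to 4 over all alternatives. The call of Epcam (limma-trend, adjusted p = 0.0416) was lost whichever well was left out, with limma-trend adjusted p from 0.0611 to 0.146. Of 8 pluripotent cell markers, 7 were tested and 4 were called higher, against 3.52% of all tested genes. The calls numbered 1 to 2 with 1 well left out and 1 to 5 over all alternatives. The sums of the list were 12.9 to 15.3 TPM and 52.7 to 66.1 TPM, and Dppa3 was at 0 in every well. Of the 4 markers called higher, 3 averaged under 1 TPM in OSKA - 4OHT and passed the filter through OSKA + 4OHT alone. Neither their count nor their part in the sums is therefore support for a rise. Fgf4, the most abundant of the list, was not called (limma-trend, adjusted p = 0.366), and most of the difference between the sums lay in the other markers. None of 8 macrophage markers was called, with sums of 61.3 to 82.5 TPM and 43.3 to 60.6 TPM. The most abundant gene of each list was Vim (3844 ± 625 and 2668 ± 523 TPM), Epcam (20.6 ± 5.23 and 46.8 ± 4.998 TPM), Fgf4 (10.8 ± 1.58 and 14.2 ± 2.35 TPM) and Cd68 (14.9 ± 2.92 and 19.0 ± 3.46 TPM), each with SD and n = 3. Cd68 had a higher mean with 4OHT without a call, whereas the fitted change was negative for 6 of the 8 macrophage markers. The fibroblast list kept the highest summed level of the 4 lists in both groups. The part of these marker differences in the results on the stress genes was not tested.

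The wider pathway was described with 11 lists of 173 genes, of which 169 were tested, 7 rose and 4 fell by limma-trend, or 6.51% against 5.49% of all tested genes. Of these, Gdf15 passed the filter on low values through OSKA + 4OHT alone, and the other 10 averaged 1 TPM or more in both groups. In the list of eIF2 kinases and control genes of the response, 1 of 14 tested genes rose and none fell, against 3.52% and 1.97% of all tested genes, and the median relative to all genes was -0.059. Eif2ak2, the interferon-induced kinase PKR, was at 21.1, 21.6 and 19.6 TPM without 4OHT and at 46.9, 42.7 and 33.2 TPM with it, with a log2 fold change of 0.95 (limma-trend, adjusted p = 0.0389). All OSKA + 4OHT wells were higher. The call for Eif2ak2 was lost without any 1 well other than OSKA + 4OHT replicate 3, with adjusted p from 0.0434 to 0.141 over the wells left out.

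The other kinases were not called. Eif2ak1, the heme-regulated kinase HRI, was at 15.0, 15.9 and 13.55 TPM against 20.9, 16.7 and 15.9 TPM, with a log2 fold change of 0.25 (limma-trend, adjusted p = 0.512). Eif2ak3, the ER kinase PERK, was at 33.8, 10.7 and 26.6 TPM against 15.5, 14.2 and 13.0 TPM, with a value of -0.57 (limma-trend, adjusted p = 0.5001). Eif2ak4, the amino acid sensor GCN2, was at 5.10, 5.80 and 4.85 TPM against 5.46, 6.24 and 6.23 TPM, with a value of 0.17 (limma-trend, adjusted p = 0.695). The OSKA - 4OHT wells of Eif2ak3 spread over more than the distance between the groups, whereas Eif2ak1 was higher in all OSKA + 4OHT wells by a small margin.

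Among ATF4 targets of amino acid supply, 2 of 22 tested genes rose and none fell, against 3.52% and 1.97% of all tested genes, and 13 lay above the all-gene median, with a list median of 0.17 relative to all genes. Slc7a11, the cystine transporter of the plasma membrane, was at 6.48, 7.90 and 5.56 TPM without 4OHT and at 24.9, 25.5 and 19.9 TPM with it. All OSKA + 4OHT wells were far above the others, with a log2 fold change of 1.75 (SE 0.22; limma-trend, adjusted p = 0.0111). Its transcripts share 373 bases at 95.4% identity with AC157548.1, and shorter stretches with many other genes. Its promoter window holds the C/EBP-ATF core on both strands, at chr3:50443661-50443690 and chr3:50443642-50443671 on the minus strand, 66 to 59 and 47 to 40 bases before the start, and is shown beside the Asns window as a gene with the same core and the opposite fitted direction.
Slc7a11, first core: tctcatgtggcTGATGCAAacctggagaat
Slc7a11, second core: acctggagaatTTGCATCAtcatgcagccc
Bcat1, the cytosolic aminotransferase of branched-chain amino acids, was at 66.9, 87.1 and 90.7 TPM without 4OHT and at 232, 254 and 197 TPM with it. The groups were apart, with a log2 fold change of 1.48 (SE 0.17; limma-trend, adjusted p = 0.00925). The core was found in 23.5% of the 17 genes of the list with a window and in 41.7% of the 12 such genes of the aminoacyl-tRNA synthetase list, against 4.51% of all genes with a window. It was found in 3 of the 15 such genes of the list of stress and signaling targets, in 6.67% of the list of partners and bZIP factors, in 7.14% of the list of ER sensors and degradation genes, and in none of the other 6 lists. The synthetases, which load amino acids on tRNAs, had no call among 20 tested genes, 7 genes higher in all OSKA + 4OHT wells and none lower (18.1% and 10.0% of all tested genes), and a median of 0.16 relative to all genes.

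Among ATF4 targets of stress and signaling, 1 of 18 tested genes rose besides Gdf15 and none fell, against 3.52% and 1.97% of all tested genes, and the list median was -0.33 relative to all genes. Gdf15, a secreted stress hormone, was listed at 0, 0.66 and 0 TPM without 4OHT and at 8.95, 5.93 and 7.87 TPM with it. Because it passed the filter only through the group where it is high, it had to differ, and its levels are given as a description with no fold and no test. Vegfa, the growth factor of blood vessels, was at 15.4, 12.0 and 10.2 TPM without 4OHT and at 32.2, 34.9 and 35.5 TPM with it, a log2 fold change of 1.43 (SE 0.20; limma-trend, adjusted p = 0.0154). The groups of Vegfa were apart, and its transcripts share short stretches with many other genes. The partners of ATF4 and related bZIP factors had no call among 15 tested genes and a median of -0.39 relative to all genes, and the genes acting with CHOP in cell death had none among 8 and a median of -0.13.

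Among ER chaperones and folding enzymes, the list nearest to Hspa5, 2 of 21 tested genes rose and none fell, against 3.52% and 1.97% of all tested genes, with a median of 0.10 relative to all genes. Dnajb11, a co-chaperone of BiP, was at 74.3, 65.0 and 68.3 TPM without 4OHT and at 117, 115 and 110.5 TPM with it, a log2 fold change of 0.72 (SE 0.12; limma-trend, adjusted p = 0.0275). The Dnajb11 call was lost whichever well was left out, with limma-trend adjusted p from 0.0564 to 0.108. Ero1lb, an oxidase that forms disulfide bonds, was at 8.71, 7.75 and 9.71 TPM without 4OHT and at 19.1, 20.7 and 21.1 TPM with it, a log2 fold change of 1.18 (SE 0.18; limma-trend, adjusted p = 0.0196). Both were higher in all OSKA + 4OHT wells, and Ero1lb shares 921 bases at 98.0% identity with Gm18562, so that its level is uncertain. The sensors and degradation genes, the list nearest to Xbp1, had no call among 17 tested genes, with 3 above the all-gene median and a list median of -0.24 relative to all genes.

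Immediate early genes, which growth factor and stress signals switch on within minutes and to which Atf3 is close, held all 4 falls. Among 18 tested genes 4 fell and none rose, against 1.97% and 3.52% of all tested genes, and the median was -1.002 relative to all genes. Fosb, a subunit of AP-1, was at 47.5, 34.1 and 40.9 TPM without 4OHT and at 17.1, 19.7 and 10.6 TPM with it, a log2 fold change of -1.38 (SE 0.27; limma-trend, adjusted p = 0.0422). The Fosb call was lost whichever well was left out, with limma-trend adjusted p from 0.0700 to 0.116. Dusp1, a phosphatase of MAP kinases, was at 180, 179 and 156 TPM without 4OHT and at 83.5, 73.4 and 61.5 TPM with it, a log2 fold change of -1.24 (SE 0.16; limma-trend, adjusted p = 0.0116). The groups were apart for both genes. The other 2 falls, named after their values were seen, were Zfp36, which promotes mRNA decay (-1.09), and Myc, a growth factor-responsive transcription factor (-1.08). Transcripts of Zfp36 share stretches of up to 141 bases with other genes. In this list 13 of the 18 genes were lower in all OSKA + 4OHT wells, against 10.0% of all tested genes, and Atf3, which is not in the list, overlapped between the groups. The count of falls was 9 with trimmed mean of M values scaling, 7 with quantile normalization and 0 without OSKA + 4OHT replicate 2. Cytosolic heat shock genes had no call among 12 tested genes and a median of -0.18 relative to all genes, and mitochondrial stress genes had none among 10 and a median of 0.033.

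**Figure D3:**
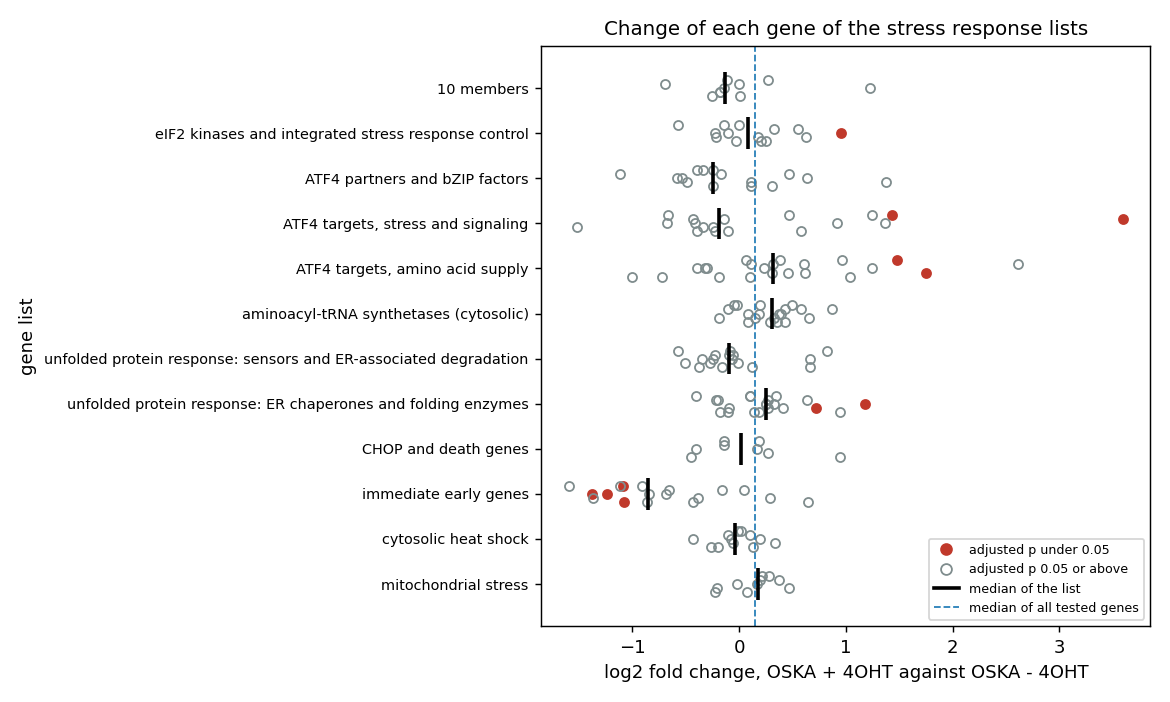
Log2 fold change of each tested gene of the 10 stress genes and of the 11 lists, OSKA + 4OHT against OSKA - 4OHT, with filled points for genes at an adjusted p under 0.05, a bar at each list median and a dashed line at the median of all tested genes. The bar of the immediate early genes lies far to the left (-0.86), and that of the 10 genes is close to 0 (-0.13).

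The calls of the lists also depended on the wells. Without 1 well, the lists held between 0 and 5 rises and between 0 and 4 falls, while the calls over all genes went down to between 112 and 318 higher and between 63 and 147 lower. Without OSKA + 4OHT replicate 2 none of the 173 genes was called. Without OSKA + 4OHT replicate 1 no rise and 1 fall, that of Dusp1, were called. Of the 6 fits that each left out 1 well, the call was lost in all 6 for Fosb and Dnajb11, in 5 for Eif2ak2, Ero1lb and Zfp36, in 4 for Vegfa, in 3 for Myc, and in 2 for Bcat1, Slc7a11 and Dusp1, so none of these calls was kept in all 6 fits. The direction held in all of these fits.

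**Figure D4:**
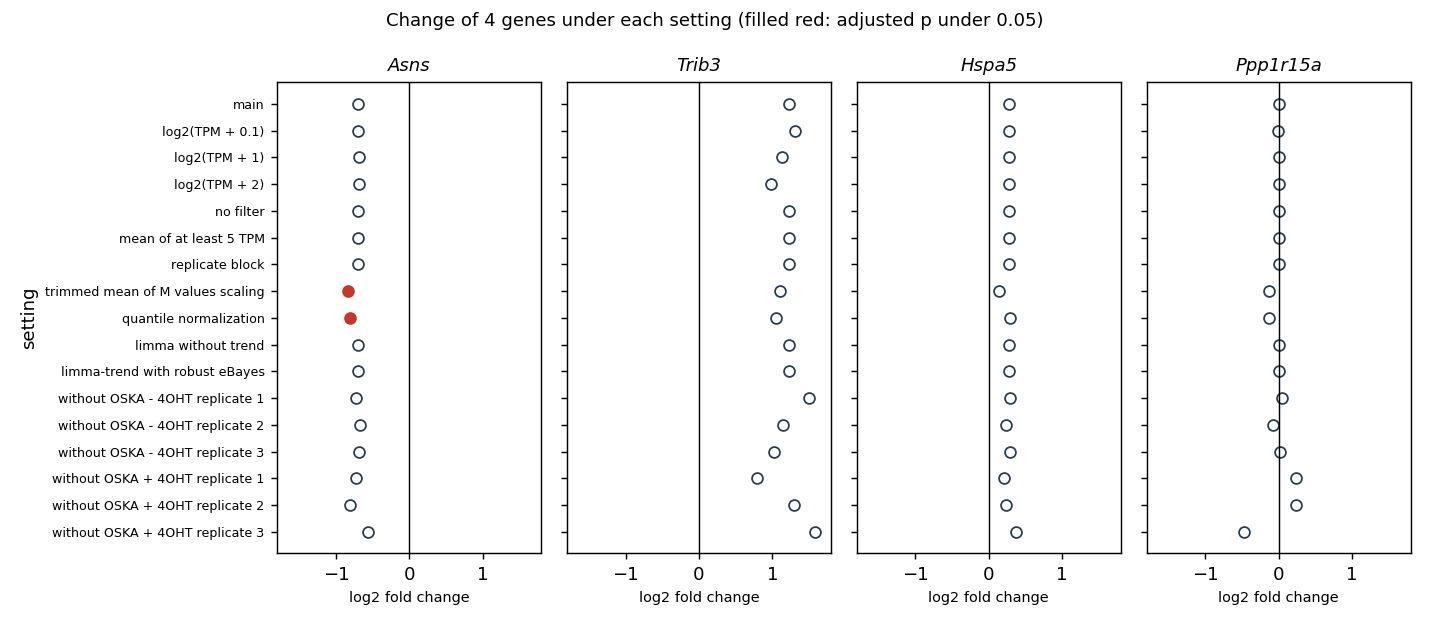
Log2 fold change of Asns, Trib3, Hspa5 and Ppp1r15a under the fit as reported and under each other setting, with filled red points where the adjusted p was under 0.05. Asns is filled for trimmed mean of M values scaling and quantile normalization only, Trib3 and Hspa5 stay above 0 without a call, and Ppp1r15a lies on either side of 0 and is lowest without OSKA + 4OHT replicate 3.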

How the data were processed

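Polyadenylated RNA was sequenced as stranded single-end libraries, and the authors trimmed the reads with Trim Galore and quantified them with Salmon against the mouse transcriptome. The versions, the annotation release and the genome build are not given in the sources used here. The authors deposited TPM for 6 libraries, summed per gene. The deposited table also holds the authors' own comparison of both groups (log2 fold change, log2 CPM, an F score and a p-value per gene), which was not used. Gene symbols and coordinates came from GENCODE on GRCm38 (54097 of 54331 gene identifiers matched) and promoter windows from RefSeq on GRCm38.p6. TPM keep no counts, so the study's count test could not be run and limma-trend (limma 3.58.1, R 4.3.3) was fitted on log2(TPM + 0.5) with group as the only term, over genes that averaged 1 TPM or more, with Benjamini-Hochberg adjustment. The test was checked on simulated data, in which the changes made were larger than those of the 10 genes. That check therefore does not bear on changes as small as theirs. Trimmed mean of M values factors were computed on the TPM, and transcript similarity (at least 95% identity) came from BLAST 2.17.0. An exact permutation test of 3 against 3 wells cannot go below p = 0.1 (two-sided) and was not used. Among 5708 genes with a median above 20 TPM, 97 were listed at 0 in at least 1 library. The genes and lists were chosen with earlier results of these data known. Named genes were the 10 genes, the 2 largest rises and falls among called genes of each list, the 4 eIF2 kinases and the most abundant gene of each marker list. Alternatives were other pseudocounts, filters and scalings, other limma settings, a replicate block and leaving out each well.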

Additional observations from a re-analysis of the deposited data

How the results depend on the processing

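Over 17 alternatives, none of the 10 genes was called higher, and none was called lower except Asns under trimmed mean of M values scaling and quantile normalization (1 gene lower in each), at log2 fold changes of -0.83 and -0.81. Atf5, Chac1, Trib3, Hspa5 and Xbp1 kept their direction and stayed without a call under every alternative in which they were tested, and Chac1 was not tested with a mean of at least 5 TPM. With trimmed mean of M values scaling, Atf4 turned to -0.12 and Ppp1r15a to -0.13, 480 genes were called lower over all genes, and 11 genes of the lists were. With quantile normalization, Atf4 was at -0.081 and Ppp1r15a at -0.14, and 7 genes of the lists were called lower. Both scalings move the median of all genes towards 0. With log2(TPM + 0.1), Ppp1r15a was at -0.0012. With a mean of at least 5 TPM, 8 genes of the lists were called lower. With the TPM of both Ddit3 entries summed, which is not a level of Ddit3, the value was 0.28.

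Leaving out 1 well at a time, Atf4 ran from -0.21 to 0.19, Atf3 from -0.29 to 0.051, Ppp1r15a from -0.48 to 0.24, and the short Ddit3 entry from -2.57 to 3.002. The calls over all genes ran from 112 to 318 higher and from 63 to 147 lower, and those of the lists from 0 to 5 higher and from 0 to 4 lower, with fewer samples in each fit. The replicate block left 31 genes higher and 16 lower over all genes, and 0 higher and 0 lower in the lists, with fewer residual degrees of freedom. The deviations of wells with the same replicate number correlated at 0.024, 0.034 and 0.084, and those of wells with different numbers at -0.062 to 0.033. All of these were weak, and the numbers were not taken to pair the wells. The cause of the other changes was not tested. Depth is unknown, since TPM do not keep it. With 3 wells a group a change of 2-fold lay inside the interval for Asns, Chac1 and Trib3, and also for the short Ddit3 entry.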
